A study of Danio rerio with 10 samples.

Results

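The oxidation and conjugation enzyme genes were followed in male zebrafish exposed to estrogen with or without an anti-estrogen. A probe was taken when the annotation of the array gave it a single gene symbol of the cytochrome P450 (cyp), glutathione transferase (gst), glucuronosyltransferase (ugt), sulfotransferase (sult), aldehyde or alcohol dehydrogenase (aldh, adh), aldo-keto or carbonyl reductase (akr, cbr), carboxylesterase (ces), epoxide hydrolase (ephx), hydroxysteroid dehydrogenase (hsd) or ATP-binding cassette transporter (abca to abcd and abcg) families, the aromatases being left out. This gave 50 probes of 47 genes among the 16416 probes of the array, of which 6088 carry 1 symbol. Cytochromes P450 made up 17 of them, carbonyl and steroid reductases 9 (7 hsd, 1 akr and 1 cbr), ABC transporters 8, aldehyde and alcohol dehydrogenases 7, glutathione transferases 4, glucuronosyl- and sulfotransferases 3 and epoxide hydrolases 2, and no carboxylesterase was found. The genes cyp1a, cyp27c1 and hsd17b14 had 2 probes each, called A and B here.

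Enzymes of these families add or expose a reactive group on lipophilic compounds, join that group to glutathione, glucuronic acid or sulfate, and hand the product to transporters that pump it out of the cell. The same families make and break down the body's own signals, among them sex steroids, retinoic acid and bile acids. Liver and gut carry much of the drug-handling part, while gonad and interrenal gland hold the steroid-making part. In fish, cyp1a is the classical target of the aryl hydrocarbon receptor.

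Whole adult males were kept for 96 hours in water that held 10 nM 17β-estradiol together with the estrogen receptor antagonist ICI 182,780 at 1 µM (E2+ICI, 3 fish), with 10 nM 17β-estradiol alone (E2, 3 fish) or with the ethanol vehicle alone (control, 4 fish), and all media held about 0.01% ethanol. Estradiol stands as 10 mM in the titles of the samples and as 10 nM in the methods. Each fish was compared on 1 array with a common reference RNA, described as pooled male and female liver, and values are log2 ratios, fish over reference. No strain is named in the sources used here, and the dose of ICI was never given without estradiol. According to the methods, each treatment was kept in more replicates than the 3 arrays used here for E2+ICI and E2, and hybridizations judged good were selected.

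The list of estrogen-inducible genes had 3 probes on the array, and the direction of the ratio was itself read from vtg3 and esr1, so their order between E2 and control fish is no check of the labels. The yolk precursor gene vtg3 averaged -0.15 in E2+ICI, 1.22 in E2 and -6.44 in control fish, and the estrogen receptor gene esr1 averaged -0.23, 1.06 and -1.03 in the same order of groups. The brain aromatase gene cyp19a1b averaged -0.08, -0.14 and -0.23 in that order and did not pass in E2 against control (0.09, SE 0.18, adjusted p = 0.727). The SD over probes within an array was 0.37 to 0.56 in E2+ICI, 0.46 to 0.51 in E2 and 0.80 to 1.07 in control fish. Markers of tissues moved with the groups too. The median over 12 oocyte and ovary probes ran from -1.37 to 0.01 on the E2+ICI arrays. It ran from 0.23 to 0.41 on the E2 arrays and from -5.52 to -4.09 on the control arrays. The 0.01 belongs to E2+ICI replicate 3, where zp3a.1, cldnd, nobox, org and ca15b all read 0.01. On that array a value of 0.01 was repeated over 373 probes. The vtg3 probe read 0.01 there too. Of the 12 probes, 11 rose in E2 against control fish. The median over 11 liver probes ran from -0.10 to -0.06, from -1.26 to -1.24 and from -0.29 to 0.55 in the same order, with 6 lower and 1 higher in E2 against control. The median over 3 intestine probes ran from -0.96 to -0.79, from -1.47 to -1.22 and from -2.55 to -1.17 in the same order. The median over 11 muscle probes was at or below -0.07 on each array. Each array held 1 value repeated over 8 to 373 probes. In control fish the muscle genes ckma and actc1b and the pancreas gene prss1 all read -0.29, -0.11, -0.25 and -0.28. Such values may not be measured ratios, and the muscle median was such a value on control arrays 1 and 4 (-0.29 and -0.28). Among the other muscle probes, mylpfa, mylz3, tpma, tnnt3b and pvalb1 read below the reference in every control fish. The probe of desma read above it in every control fish, and pvalb2, myhz2 and atp2a1 read on both sides. In control fish the oocyte median lay far below this reference (-5.52 to -4.09), while the liver median ran from -0.29 to 0.55. The reference is described as liver, and whether it held RNA of other tissues was not tested. Among the members, 1 probe held a repeated value, gstp1.2 on E2+ICI replicate 3. The part of these tissue differences in the results that follow was not tested, and in RNA of whole fish fewer cells of a type and less RNA per cell cannot be told apart.

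Members differed between E2 and control fish in both directions. Against control, 9 of the 50 probes rose in E2 fish and 11 fell (limma, adjusted p under 0.05 over the 16208 probes tested). That is 40.0% of the members, where 35.6% of all probes tested passed, 19.2% higher and 16.5% lower. The median log2 fold change was -0.08 over the members and -0.07 over all probes, and the members ran from -1.55 for abca1a to 2.57 for cyp2k6. Each probe that rose had a control mean below the reference (-2.11 for cyp2k6 to -0.52 for aldh3b1). Each that fell had one above it (0.28 for aldh1a2 to 1.76 for abca1a), except abcc4 (-0.28) and cyp2k19 (-0.50). The control mean is also part of each difference. The part of the narrower ratios on the E2 arrays in these directions was not tested. Of the ABC transporters 5 of 8 fell and none rose, and of the 3 glucuronosyl- and sulfotransferases 2 fell. Of the 4 glutathione transferases none passed in either direction (limma). An unadjusted p under 0.05 was held by 1 of these 4, and by 7305 of all 16208 probes. Only 4 of the 17 cytochromes P450 passed, 2 in each direction, and the median size of their log2 change was 0.17, against 0.41 over all probes.

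With ICI added, 5 members stood apart from control. Compared with control, 3 probes were higher and 2 lower in E2+ICI fish, that is 10.0% of the members, where 12.0% of all probes passed, 8.92% higher and 3.04% lower. Between E2+ICI and E2 fish 2 members were higher and 2 lower, 4 of the 50, where 5.42% of all probes passed (2.88% higher and 2.54% lower). There 16 of the 50 members had an unadjusted p under 0.05 (limma), as did 3919 of all 16208 probes. Shares of the members near those of all probes are no result about the members. The groups did not overlap for 23 members in E2 against control, where this held for 43.1% of all probes. The same was seen for 13 members between E2+ICI and control, 6 above and 7 below (25.0% of all probes, 15.5% above and 9.53% below), and for 27 members between E2+ICI and E2, 15 above and 12 below (42.5% of all probes, 22.7% above and 19.9% below). These 3 comparisons share arrays and are given side by side.

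**Figure D1:**
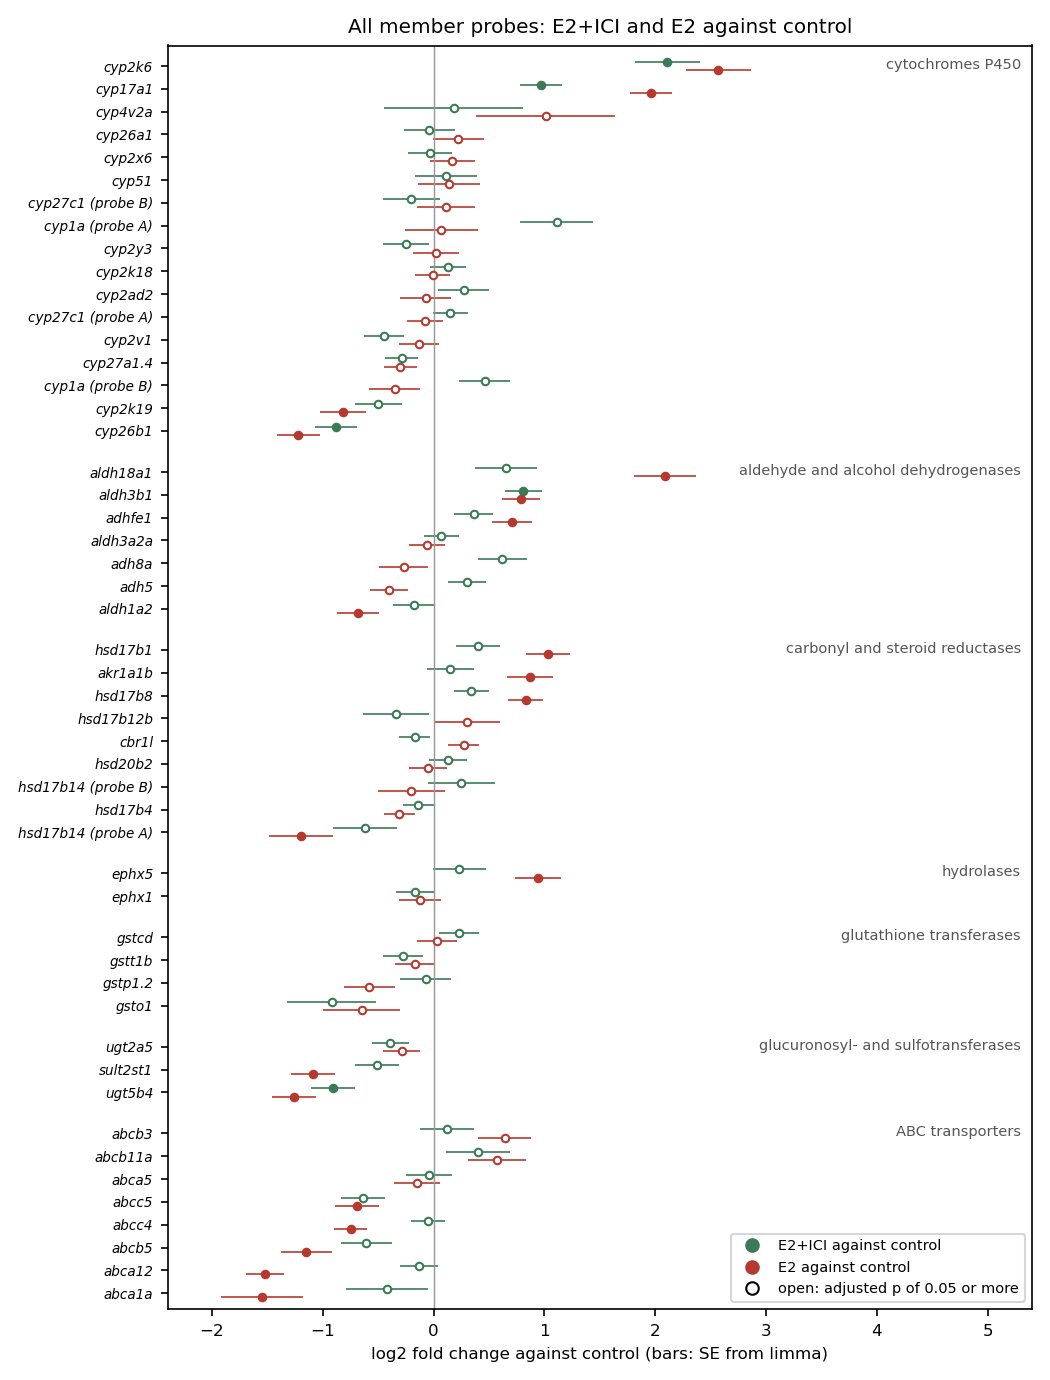
Log2 fold change against control of the 50 member probes, by family, in E2+ICI fish (green) and E2 fish (red), with bars of 1 SE from limma, and filled points have an adjusted p under 0.05. The widest rises are those of cyp2k6 in both treated groups and of aldh18a1 and cyp17a1 in E2 fish, and the widest falls those of abca1a and abca12 in E2 fish.

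Among the cytochromes P450, cyp2k6, a gene of the fish CYP2 family, changed most. Its probe read 0.08, -0.14 and 0.06 in E2+ICI fish, 0.47, 0.19 and 0.69 in E2 fish and -2.56, -2.47, -2.24 and -1.18 in control fish. All treated fish lay above all control fish, control replicate 4 being the highest control. It rose 5.92-fold in E2 against control (log2 2.57, SE 0.29, adjusted p = 6.31e-05) and 4.32-fold in E2+ICI against control (log2 2.11, SE 0.29, with an adjusted p = 0.000751). The difference between E2+ICI and E2 fish was -0.45 on the log2 scale (SE 0.31) and did not pass (adjusted p = 0.404).

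The gene cyp17a1 encodes the 17α-hydroxylase and 17,20-lyase that leads from pregnanes to androgens. It read -0.57, -0.70 and -0.26 in E2+ICI fish, 0.44, 0.59 and 0.40 in E2 fish and -1.21, -1.35, -1.94 and -1.42 in control fish. The 3 groups did not overlap, with E2+ICI fish in the middle. The rise was 3.88-fold in E2 against control (log2 1.96, SE 0.19, adjusted p = 2.2e-05) and 1.96-fold in E2+ICI fish relative to control (log2 0.97, SE 0.19, adjusted p = 0.00681), and the log2 difference of E2+ICI from E2 fish was -0.98 (SE 0.20, adjusted p = 0.0229). It was the one member that passed in all 3 comparisons. The rise in E2+ICI was 0.34 with quantile normalization (adjusted p = 0.388) and 0.46 with arrays scaled to equal spread (adjusted p = 0.176), and the difference from E2 did not pass when any 1 of the E2 arrays was left out, or without E2+ICI replicate 1 or 2 (adjusted p of 0.0736 to 0.101). Before Lowess the difference from E2 did not pass either (-1.09, adjusted p = 0.0737). The oocyte marker median given above was likewise highest in E2 and lowest in control fish, and its part in this result was not tested. The gene star, whose product brings cholesterol into the mitochondria of steroid-making cells, averaged 0.08 in E2+ICI, -0.76 in E2 and 1.13 in control fish. The rule for named genes did not name it. It is 1 of 8 testis probes, of which 4 rose and 3 fell in E2 against control (19.2% and 16.5% of all probes). The testis median ran from -0.40 to -0.30 in E2+ICI, from -0.09 to 0.02 in E2 and from -0.67 to -0.34 in control fish. The part of the testis was not tested.

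Of the enzymes that set retinoic acid levels, 1 that degrades it and 1 that makes it fell in E2 fish. The probe of cyp26b1, which breaks down retinoic acid, read 0.32, 0.29 and -0.13 in E2+ICI fish, -0.38, -0.31 and 0.15 in E2 fish and 0.80, 0.96, 1.16 and 1.23 in control fish. Every treated fish was below every control fish, and the treated groups overlapped. The log2 difference from control was -1.22 for E2 fish (SE 0.19, adjusted p = 0.000478) and -0.88 for E2+ICI fish (SE 0.19, adjusted p = 0.0105). That of E2+ICI fish did not pass with quantile normalization (-0.59, adjusted p = 0.111), with equal spread (-0.55, adjusted p = 0.114) or without E2+ICI replicate 3 (-0.74, adjusted p = 0.0699). The gene aldh1a2, which makes retinoic acid, read 0.00, 0.42 and -0.12 in E2+ICI fish, -0.27, -0.22 and -0.69 in E2 fish and 0.26, 0.47, 0.44 and -0.05 in control fish. Its fall of 0.68 in E2 against control (SE 0.19, adjusted p = 0.0187) did not pass without E2 replicate 3 (-0.53, adjusted p = 0.0954). For cyp26a1, of the same function as cyp26b1 and picked out after its values were seen, the change was 0.22 in E2 against control (SE 0.23, adjusted p = 0.503), with values of -1.42 to -1.16 in E2+ICI, -1.19 to -0.92 in E2 and -1.75 to -0.68 in control fish.

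The fourth P450 that passed was cyp2k19, another gene of the fish CYP2 family. It read -0.81, -1.13 and -1.04 in E2+ICI fish, -1.39, -1.49 and -1.07 in E2 fish and -0.87, -0.44, -0.01 and -0.70 in control fish. The E2 fish were all below the control fish, while 1 E2+ICI fish was above the lowest control. It fell by 0.82 in E2 against control (SE 0.21, adjusted p = 0.0104). The difference of -0.5 between E2+ICI and control did not pass (SE 0.21, adjusted p = 0.157). It passed with quantile normalization (-1.27, adjusted p = 0.00577) and with equal spread (-0.9, adjusted p = 0.0126).

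Both probes of cyp1a were higher in each E2+ICI fish than in any other fish. The median of the 3 intestine probes was likewise higher on each E2+ICI array than on any other array. On the E2+ICI arrays it was the value of slc15a1b. Between E2+ICI and control fabp2, a fatty acid binding protein gene of the intestine, passed (1.63, SE 0.43, adjusted p = 0.0308). The difference of slc15a1b did not pass (0.91, adjusted p = 0.0801). That of vil1 went the other way and did not pass (-0.29, adjusted p = 0.501). The part of the intestine in the cyp1a values was not tested. Probe A (array identifier 5270094) read -0.35, -0.20 and -0.37 in E2+ICI fish, -1.28, -1.32 and -1.45 in E2 fish and -1.0, -1.18, -0.92 and -2.57 in control fish. Control replicate 4 stood far below the other control fish. Probe B (5281158) read -0.33, -0.29 and -0.17 in E2+ICI fish, -1.22, -0.51 and -1.49 in E2 fish and -1.06, -0.85, -0.50 and -0.47 in control fish. The probes differed in which single array was unusual, control replicate 4 for A and E2 replicate 2, the highest E2 fish, for B.

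Neither cyp1a probe passed in any comparison of the 3 groups. For probe A the log2 difference was 1.11 between E2+ICI and control (SE 0.33, adjusted p = 0.0520), 1.04 in E2+ICI against E2 (SE 0.35, adjusted p = 0.104) and 0.07 in E2 against control (SE 0.33, adjusted p = 0.892). For probe B the same differences were 0.46 (SE 0.23, adjusted p = 0.242), 0.81 (SE 0.25, adjusted p = 0.0788) and -0.35 (SE 0.23, adjusted p = 0.268). Compared with control, E2+ICI fish passed in probe A without control replicate 1 (1.25, adjusted p = 0.0454) or 3 (1.28, adjusted p = 0.0410). With all arrays kept, that difference passed with array weights (0.81, adjusted p = 0.00179), complete probes only (1.11, adjusted p = 0.048) or the replicate block (0.73, adjusted p = 0.0135). It did not pass with quantile normalization or equal spread. Without control replicate 4 the difference of probe A was 0.73 in E2+ICI against control (adjusted p = 0.00384), 1.04 in E2+ICI against E2 (adjusted p = 0.00138) and -0.32 in E2 against control (adjusted p = 0.0787), and that of probe B was 0.81 in E2+ICI against E2 (adjusted p = 0.0371). Without E2 replicate 2 probe B passed in E2+ICI against E2 (1.09, adjusted p = 0.0408) and in E2 against control (-0.64, adjusted p = 0.0404). In E2 against control the sign for probe A was turned by quantile normalization (-0.88, adjusted p = 0.00544) and by equal spread (-0.73, adjusted p = 0.0115), under which probe B fell too (-0.91 and -0.80, adjusted p = 0.0160 and 0.0290). In E2+ICI against E2 both probes passed with quantile normalization, equal spread, array weights or only the groups compared (adjusted p of 0.000505 to 0.0307). Probe A did so with the replicate block too (adjusted p = 0.00561). Over all alternatives of that comparison the highest adjusted p was 0.282 for A and 0.257 for B. Over all probes, 15.5% had every E2+ICI array above every control array, and 22.7% had every E2+ICI array above every E2 array. The probe of ahr2, an aryl hydrocarbon receptor of fish, averaged -0.06 ± 0.18 in E2+ICI, -0.71 ± 0.32 in E2 and 0.31 ± 0.09 in control fish (SD, n = 3, 3 and 4) and fell by 1.02 in E2 against control (SE 0.17, adjusted p = 0.000889). Neither ahr1a, another such receptor gene (0.01, adjusted p = 0.974), nor arnt2, of a partner family (-0.29, adjusted p = 0.118), passed in that comparison.

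**Figure D2:**
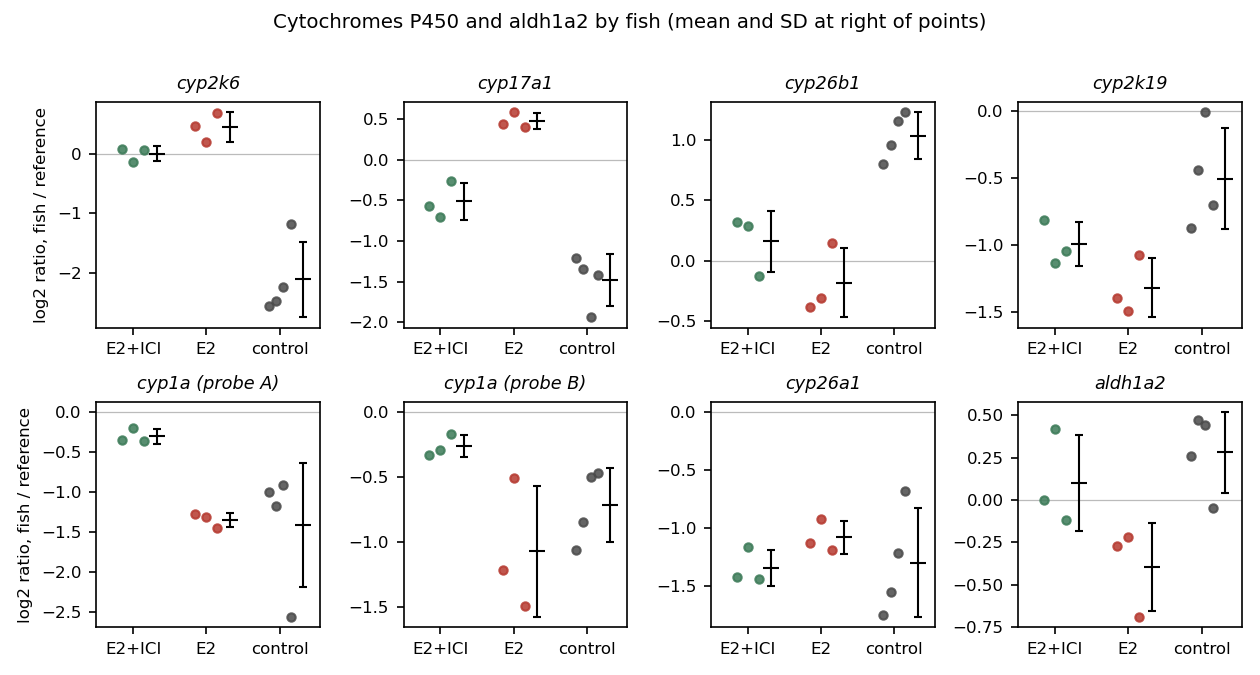
Log2 ratio of fish to reference of 7 cytochrome P450 probes and aldh1a2, where points are fish, and the mark at the right of each group is the mean with its SD (3 E2+ICI, 3 E2 and 4 control fish). Each E2+ICI point of both cyp1a probes lies above all E2 and control points, and control replicate 4 of probe A is the lowest point at -2.57.

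The other 10 P450 probes did not pass in any comparison. The largest difference among them in E2 against control, 1.01 (SE 0.63, adjusted p = 0.237), belonged to cyp4v2a, a fatty acid hydroxylase gene, whose control values of -3.28, -0.24, -0.08 and -1.95 spread over the values of E2+ICI (-0.95, -1.06 and -1.61) and E2 fish (-0.53, -0.32 and -0.28). For cyp51, which removes a methyl group of lanosterol on the way to cholesterol, the E2 fish read -0.03 to 0.00 and the control fish -1.01 to 0.36, a difference of 0.14 (SE 0.28). Both probes of cyp27c1, which turns vitamin A1 into vitamin A2, differed by -0.08 and 0.11 in E2 against control (SE 0.16 and 0.26). The CYP2 genes cyp2ad2, cyp2k18, cyp2v1, cyp2x6 and cyp2y3 and the sterol hydroxylase gene cyp27a1.4 moved by -0.30 to 0.17.

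Enzymes that act on steroids and other carbonyl compounds rose in part. The gene hsd17b1, whose product reduces estrone to estradiol, read -0.28, -0.64 and -0.60 in E2+ICI fish, 0.09, -0.04 and 0.31 in E2 fish and -1.26, -1.07, -0.86 and -0.44 in control fish. All E2 fish were above all others. It rose 2.04-fold in E2 against control (log2 1.03, SE 0.20, adjusted p = 0.00224), and the differences of E2+ICI fish, 0.40 from control (adjusted p = 0.234) and -0.63 from E2 (adjusted p = 0.107), did not pass. Without control replicate 4 both did, at 0.56 from control (adjusted p = 0.0409) and -0.63 from E2 (adjusted p = 0.0278), and over all alternatives the adjusted p ran from 0.00727 to 0.948 against control and from 0.00856 to 0.468 against E2.

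The gene hsd17b8, a reductase also known from mitochondrial fatty acid synthesis, read -0.26, -0.37 and -0.20 in E2+ICI fish, 0.46, 0.23 and -0.06 in E2 fish and -0.84, -0.59, -0.60 and -0.43 in control fish. Its groups did not overlap, and it rose 1.78-fold in E2 against control (log2 0.83, SE 0.16, adjusted p = 0.00220). The differences of E2+ICI fish, 0.34 from control (adjusted p = 0.211) and -0.49 from E2 (adjusted p = 0.115), did not pass. The aldehyde reductase gene akr1a1b read -0.35, -0.52 and -0.38 in E2+ICI fish, 0.48, 0.29 and 0.12 in E2 fish and -1.02, -0.21, -0.21 and -0.83 in control fish, with E2 fish above the rest. The rise was 1.82-fold in E2 against control (log2 0.87, SE 0.21, adjusted p = 0.00863). For akr1a1b the E2+ICI fish did not pass against control (0.15, adjusted p = 0.704) or against E2 (-0.72, adjusted p = 0.0882).

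The probes of hsd17b14, which in humans encodes a dehydrogenase that oxidizes estradiol in vitro, did not give the same answer. Probe A (5282345) read 0.71, 0.36 and 0.92 in E2+ICI fish, -0.51, 0.66 and 0.09 in E2 fish and 0.90, 1.14, 1.26 and 1.83 in control fish, and fell by 1.2 in E2 against control (SE 0.29, adjusted p = 0.00730, or -0.76 and adjusted p = 0.0580 with equal spread). Probe B (5283548) read 0.27, 0.65 and 0.47 in E2+ICI fish, -0.02, 0.01 and 0.05 in E2 fish and 0.67, 0.51, 0.47 and -0.80 in control fish, a difference of -0.20 in E2 against control (SE 0.30, adjusted p = 0.647). Control replicate 4 was the lowest control for B and the highest for A, and without it the difference of B was -0.53 (adjusted p = 0.00983).

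The other reductases did not pass in any comparison. In E2 against control, the carbonyl reductase gene cbr1l differed by 0.27 (SE 0.14, adjusted p = 0.168), hsd17b12b, which lengthens fatty acids, by 0.30 (SE 0.30, adjusted p = 0.486), hsd17b4, of peroxisomal β-oxidation, by -0.31 (SE 0.14, adjusted p = 0.108) and hsd20b2, which reduces cortisone in zebrafish, by -0.05 (SE 0.17, adjusted p = 0.834). The values of hsd20b2 were 0.09 to 0.36 in E2+ICI, -0.07 to 0.13 in E2 and -0.20 to 0.32 in control fish.

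Of the aldehyde and alcohol dehydrogenases, aldh18a1 rose most. Its product makes the precursor of proline and ornithine from glutamate. It read -0.57, -1.2 and -0.51 in E2+ICI fish, 0.53, 0.95 and 0.58 in E2 fish and -1.89, -1.81, -1.01 and -0.90 in control fish. The E2 fish stood clear of both other groups, which overlapped. It rose 4.26-fold in E2 against control (log2 2.09, SE 0.28, adjusted p = 0.000179) and the log2 difference of E2+ICI from E2 fish was -1.44 (SE 0.30, adjusted p = 0.0220). That difference did not pass when any 1 of the E2 arrays was left out, or without E2+ICI replicate 1 or 2 (adjusted p of 0.0572 to 0.101). Before Lowess it did not pass either (-1.53, adjusted p = 0.0764).

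The pattern of aldh3b1, an aldehyde dehydrogenase of lipid-derived aldehydes, was another. It read 0.15, 0.27 and 0.44 in E2+ICI fish, 0.50, 0.01 and 0.30 in E2 fish and -0.41, -0.44, -0.43 and -0.80 in control fish. The treated groups overlapped, and both lay above the control fish. The rise was 1.75-fold in E2+ICI fish relative to control (log2 0.81, SE 0.17, adjusted p = 0.00915) and 1.73-fold in E2 against control (log2 0.79, SE 0.17, adjusted p = 0.00360), and in E2+ICI against control it did not pass without E2+ICI replicate 3 (0.73, adjusted p = 0.0612). Nor did the rise in E2+ICI pass before Lowess (0.96, adjusted p = 0.111). The difference between E2+ICI and E2 fish was 0.02 (SE 0.18, adjusted p = 0.966).

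The gene adhfe1, an iron-dependent alcohol dehydrogenase that acts on hydroxybutyrate, read -0.27, -0.25 and -0.23 in E2+ICI fish, 0.25, 0.06 and -0.02 in E2 fish and -0.91, -0.81, -0.56 and -0.18 in control fish. It rose 1.63-fold in E2 against control (log2 0.71, SE 0.18, adjusted p = 0.0100). The genes adh5, of formaldehyde removal, and adh8a, which oxidizes ethanol in zebrafish, were higher in all E2+ICI than in all E2 fish: adh5 read -0.72, -0.42 and -0.60 against -1.31, -1.34 and -1.21, and adh8a read -2.62, -2.39 and -2.44 against -3.54, -3.18 and -3.37. The differences of 0.70 and 0.88 (SE 0.19 and 0.24) did not pass (adjusted p = 0.0526 and 0.0547). That of adh5 passed without control replicate 1, 2 or 4 (adjusted p = 0.0412, 0.0476 and 0.0227). The rule for named genes did not name adh8a, and its values with arrays left out were not followed. Control fish read -1.19 to -0.53 for adh5 and -3.57 to -2.60 for adh8a, and vehicle ethanol was in all media. The fatty aldehyde dehydrogenase gene aldh3a2a differed by -0.06 in E2 against control (SE 0.16).

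**Figure D3:**
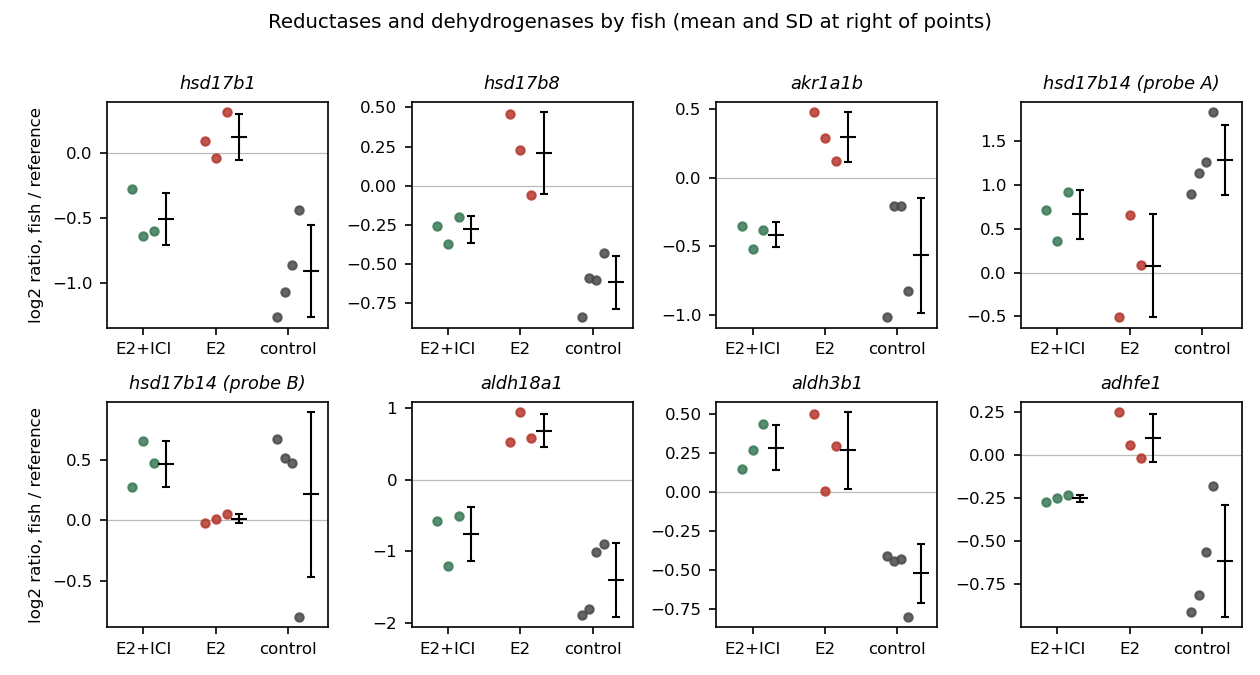
Log2 ratio of fish to reference of 5 reductase and 3 dehydrogenase probes, where points are fish, and the mark at the right of each group is the mean with its SD (3 E2+ICI, 3 E2 and 4 control fish). The E2 points of hsd17b1, hsd17b8, akr1a1b and aldh18a1 lie above all control points, and for probe B of hsd17b14 control replicate 4 lies at -0.80, below all other fish.

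Of the epoxide hydrolases, ephx5 read -0.93 and -1.06 in E2+ICI fish (1 array held no value), -0.21, -0.31 and -0.36 in E2 fish and -1.76, -0.90, -1.31 and -0.94 in control fish. The E2 fish stood above the rest, and it rose 1.92-fold in E2 against control (log2 0.94, SE 0.21, adjusted p = 0.00596), a call that was lost with quantile normalization (0.48, adjusted p = 0.129) and with equal spread (0.54, adjusted p = 0.0729). For ephx5 the E2+ICI fish did not pass against control (0.23, adjusted p = 0.586) or against E2 (-0.70, adjusted p = 0.122). The microsomal enzyme gene ephx1 differed by -0.12 in E2 against control (SE 0.19, adjusted p = 0.661).

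Conjugating enzymes fell or did not pass in E2 fish. The gene ugt5b4, of a glucuronosyltransferase family found in fish, read -0.31, -0.03 and -0.18 in E2+ICI fish, -0.50, -0.59 and -0.48 in E2 fish and 0.16, 0.86, 1.12 and 0.79 in control fish. The groups did not overlap. The log2 difference from control was -1.26 for E2 fish (SE 0.20, adjusted p = 0.000717) and -0.91 for E2+ICI fish (SE 0.20, adjusted p = 0.0146). That of E2+ICI fish did not pass without E2+ICI replicate 1 or 3 (adjusted p = 0.0716 and 0.0673). Nor did it pass with only the groups compared (adjusted p = 0.05) or with SAM (q = 0.0535). The difference of 0.35 between E2+ICI and E2 fish did not pass (SE 0.22, adjusted p = 0.355).

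The sulfotransferase gene sult2st1, whose product sulfates steroids such as dehydroepiandrosterone in zebrafish, read 0.43, 0.06 and 0.02 in E2+ICI fish, -0.24, -0.46 and -0.52 in E2 fish and 0.43, 0.55 and 1.06 in the 3 control fish with a value. The E2 fish were all below the rest. It fell by 1.09 in E2 against control (SE 0.20, adjusted p = 0.00214). The differences of E2+ICI fish, -0.51 from control (adjusted p = 0.139) and 0.58 from E2 (adjusted p = 0.118), did not pass. The glucuronosyltransferase gene ugt2a5 read 0.04 and 0.09 in 2 E2+ICI fish, 0.25 and 0.08 in 2 E2 fish and 0.22, 0.45, 0.57 and 0.59 in control fish, a difference of -0.29 in E2 against control (SE 0.17, adjusted p = 0.225).

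No glutathione transferase passed. The omega-class gene gsto1 read -0.32 and -0.67 in E2+ICI fish, -0.24, -0.31 and -0.15 in E2 fish and -0.69, 0.49, 1.08 and 0.81 in control fish. The differences from control were -0.65 for E2 fish (SE 0.35, adjusted p = 0.180) and -0.92 for E2+ICI fish (SE 0.40, adjusted p = 0.176). Without control replicate 1, the lowest control, they were -1.02 (adjusted p = 0.00333) and -1.29 (adjusted p = 0.00550). With that array kept, the difference of E2+ICI fish passed with quantile normalization (-1.18, adjusted p = 0.048) and with array weights (-0.83, adjusted p = 0.0309). The pi-class gene gstp1.2 read 0.43, 0.49 and 0.01 in E2+ICI fish, -0.09, -0.18 and -0.33 in E2 fish and 0.17, 0.79, 0.68 and -0.14 in control fish (E2 against control -0.58, SE 0.23, adjusted p = 0.0715). The theta-class gene gstt1b and gstcd, named for a glutathione transferase domain, differed by -0.17 and 0.03 in E2 against control.

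The ABC transporters that passed all fell in E2 fish. The gene abca12, which in mammals loads lipid into granules of skin cells, read 1.23, 1.76 and 1.56 in E2+ICI fish, 0.29, -0.05 and 0.17 in E2 fish and 1.70, 1.72, 1.42 and 1.77 in control fish. The E2 fish stood apart, and the E2+ICI fish overlapped the control fish. It differed from control by -1.52 in E2 fish (SE 0.17, adjusted p = 5.41e-05), was 2.60-fold higher in E2+ICI than in E2 fish (log2 1.38, SE 0.18, adjusted p = 0.00308) and differed from control by -0.13 once ICI was present (SE 0.17, adjusted p = 0.663). With arrays scaled to equal spread that last difference was 0.70 (adjusted p = 0.0292).

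The probe of abcc4, which exports cyclic nucleotides and organic anions such as conjugated steroids, was also lowest in E2 fish. It read -0.39, -0.18 and -0.42 in E2+ICI fish, -0.85, -1.19 and -1.06 in E2 fish and -0.20, -0.42, -0.38 and -0.13 in control fish. It fell by 0.75 in E2 against control (SE 0.15, adjusted p = 0.00223) and was 0.70 higher in E2+ICI than in E2 fish (SE 0.16, adjusted p = 0.0304), a call lost when any 1 of the 6 treated arrays was left out (adjusted p of 0.0552 to 0.116). The latter call was also lost before Lowess (0.72, adjusted p = 0.143), and with array medians then set to 0 (0.56, adjusted p = 0.245).

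The gene abca1a, a homolog of the transporter that moves cholesterol out of cells, read 1.28, 1.56 and 1.16 in E2+ICI fish, 0.26, 0.14 and 0.22 in E2 fish and 2.07, 1.15, 0.97 and 2.83 in control fish. It fell by 1.55 in E2 against control (SE 0.37, adjusted p = 0.00700), and the difference of 1.13 in E2+ICI against E2 did not pass (SE 0.39, adjusted p = 0.112), though it did without control replicate 4 (1.13, adjusted p = 0.0134) and in 5 other alternatives. The probe of abcb5 read 0.04, 0.19 and -0.22 in E2+ICI fish, -0.66, -0.43 and -0.53 in E2 fish and 1.13, 0.30, 0.13 and 0.87 in control fish, and fell by 1.15 in E2 against control (SE 0.23, adjusted p = 0.00280). In both genes every E2 fish was below every other fish. For abcb5 the E2+ICI fish did not pass against control (-0.61, adjusted p = 0.122) or against E2 (0.54, adjusted p = 0.212).

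The gene abcc5, another exporter of organic anions, read 0.02, 0.70 and 0.26 in E2+ICI fish, 0.47, 0.36 and 0.02 in E2 fish and 1.01, 0.71, 0.96 and 1.21 in control fish. It fell by 0.69 in E2 against control (SE 0.20, adjusted p = 0.0182), a call that was lost with quantile normalization (-0.37, adjusted p = 0.153), with equal spread (-0.35, adjusted p = 0.138) and without E2 replicate 3 (-0.56, adjusted p = 0.0909), and its difference of -0.64 between E2+ICI and control did not pass (SE 0.20, adjusted p = 0.0567). The other 3 transporters did not pass in E2 against control. These were abcb3 (0.64, SE 0.24, adjusted p = 0.0603), whose name in mammals belongs to a peptide transporter of antigen presentation, the bile salt export pump gene abcb11a (0.57, SE 0.26, adjusted p = 0.113) and abca5 (-0.15, SE 0.21, adjusted p = 0.624). For abcb3 this difference passed without control replicate 3 (0.77, adjusted p = 0.0318) or 4 (0.76, adjusted p = 0.0205), whereas with quantile normalization it was -0.28 and abcb3 passed as lower in E2+ICI than in E2 (-1.34, adjusted p = 0.00249) and control fish (-1.62, adjusted p = 0.00123).

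**Figure D4:**
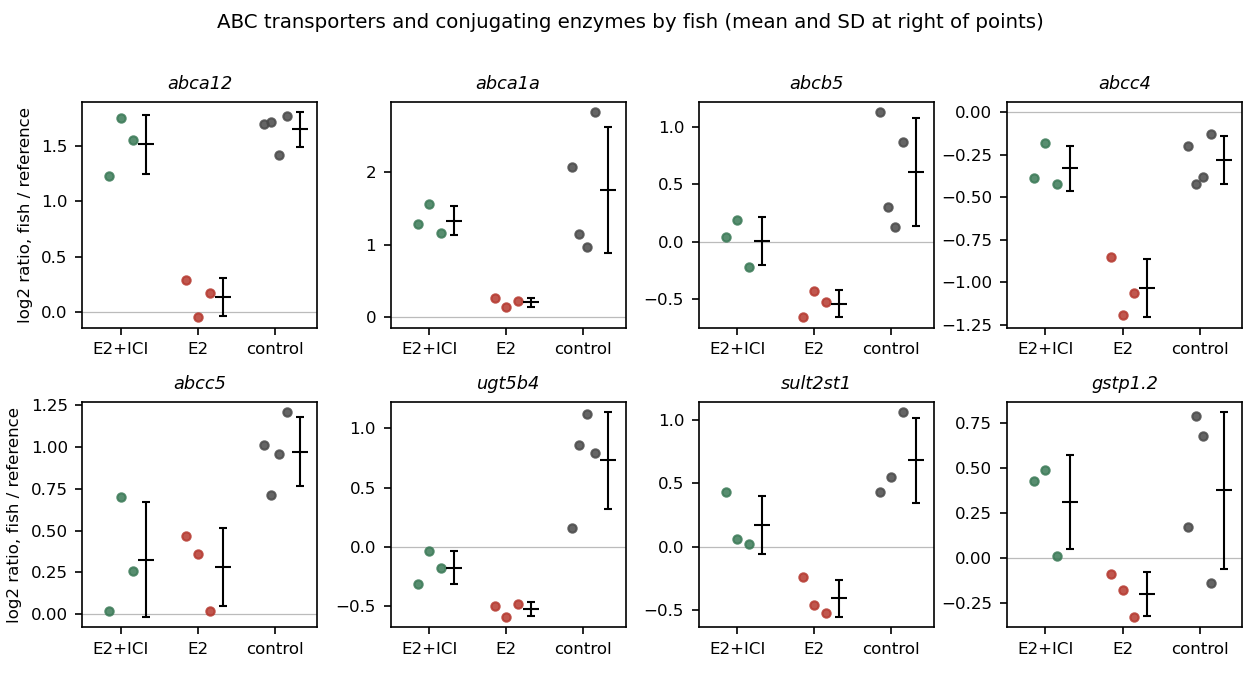
Log2 ratio of fish to reference of 5 ABC transporter, 2 conjugating enzyme and 1 glutathione transferase probes, where points are fish, and the mark at the right of each group is the mean with its SD (3 E2+ICI, 3 E2 and 4 control fish). The E2 points of abca12, abca1a, abcb5, abcc4, ugt5b4 and sult2st1 lie below all control points, and those of gstp1.2 overlap with control.

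The genes that serve these enzymes, namely electron donors, suppliers of cofactors and regulators, gave 17 probes of 16 genes on the array from a list of 51 genes. In E2 against control 2 of the 17 rose and 5 fell (limma), with a median of -0.22, where 19.2% of all probes were higher and 16.5% lower. None of the 17 passed in E2+ICI against control or against E2, where 12.0% and 5.42% of all probes passed. With 17 probes this is no result about these genes. A probe of ugdh, which makes the activated sugar for glucuronidation, averaged 0.02 ± 0.17 in E2+ICI, 0.81 ± 0.12 in E2 and -0.28 ± 0.53 in control fish and rose by 1.09 in E2 against control (SE 0.25, adjusted p = 0.00594), while the other ugdh probe differed by 0.68 (SE 0.42, adjusted p = 0.239). Of the makers of activated sulfate, papss2b averaged 0.33 ± 0.28 in E2+ICI, -0.11 ± 0.03 in E2 and 1.03 ± 0.44 in control fish and fell by 1.14 in E2 against control (SE 0.23, adjusted p = 0.00271). Chosen after their values were seen, papss1, cyb5r3, gclc and gclm are given as well. The probes of gclc and gclm, the subunits of the enzyme that begins glutathione synthesis, differed by 0.15 and 0.55 in E2 against control and did not pass (adjusted p = 0.700 and 0.0792). The probe of papss1 ran the other way, with a rise of 1.11 (SE 0.34, adjusted p = 0.0245). Cytochrome b5 reductase gene cyb5r3, an electron donor of the endoplasmic reticulum, fell by 0.71 (SE 0.22, adjusted p = 0.0247), and the retinoid X receptor gene rxrab, a partner of receptors that switch on many of these enzymes, fell by 0.74 (SE 0.14, adjusted p = 0.00194).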

How the data were processed

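Total RNA of single whole fish (Cy3) was hybridized with a common reference RNA (Cy5) to spotted oligonucleotide arrays, 1 per fish and with no dye swap. The authors subtracted local background and normalized each array by Lowess, and the deposited values are log2 ratios. A deposited table of log2 ratios before Lowess served as an alternative. Scanner intensities were not used here, versions of the array software are not given in the sources used here, and the number of arrays limits the precision. The numerator of the ratio is not stated in the files. It was read as fish over reference because vtg3 and esr1 were then higher in E2 fish.

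Probes missing on no more than 6 arrays, with 2 or more values per group, were kept (16208 of 16416), among them all 50 members. Of these, 42 had a value on each of the 10 arrays, 7 missed 1 and 1 missed 2, and a fit left missing values out. Symbols came from the platform annotation, and 49 of 50 were found unchanged in the RefSeq gene table. The 3 groups were fitted together in limma 3.58.1 (R 4.3.3), with two-sided p-values adjusted by Benjamini-Hochberg over all probes in each comparison. Each p-value is set against the spread between arrays within groups, with 1 estimate shared by the 3 groups. With 1 array per fish, that spread holds differences of labelling and hybridization as well as those between fish. The plan took limma as the test, whereas the methods of the study used SAM, which was run as an alternative.

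The members, the gene lists and the rule for named genes were chosen with earlier results of these data known. The rule named all cyp1a probes, in each family up to 5 that passed in E2 against control with the smallest adjusted p and up to 3 in each other comparison, the widest change that did not pass, other probes of those genes, genes of steroid synthesis and inactivation, and up to 4 genes of the list of electron donors, cofactor supply and regulators. Alternatives changed the scaling, weights, prior, filters, groups fitted, replicate block and arrays. The values before Lowess with array medians set to 0 were added after seeing the data. Simulated data were used to check the scripts.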

Additional observations from a re-analysis of the deposited data

Results flagged for a closer look

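In 3 of the 31 probes tested among the control fish, 1 array stood apart from the other 3 by more than the critical gap of Dixon's test, where chance gives about 1 in 20. It was control replicate 4 each time. That array read -0.80 for aldh3b1 (the others -0.44 to -0.41), -2.57 for probe A of cyp1a (the others -1.18 to -0.92) and -0.80 for probe B of hsd17b14 (the others 0.47 to 0.67).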

How the results depend on the processing

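With 3 or 4 fish per group, and wider ratios in control fish, the counts depended on scaling and on single arrays, most in E2+ICI. Of the members that passed, 16 of 20 in E2 against control, 1 of 5 in E2+ICI against control (cyp2k6) and 1 of 4 in E2+ICI against E2 (abca12, SAM left aside) passed in every alternative followed for single probes. The 2-fold minimum and the averaging of probes of 1 gene symbol were not among these. Among single-probe values under alternatives, taken only for the probes that the rule named, 2068 kept direction and side of the threshold. A further 102 newly passed and 42 no longer passed, both with the sign kept. The other 47 changed sign, none of them in a call that had passed. Of the 47, 4 also newly passed, namely abca12 in E2+ICI against control with equal spread, abcb3 in E2+ICI against control with quantile normalization, and probe A of cyp1a in E2 against control with either. Calls gained with 1 array left out by probes that the rule named, and not given above, were as follows. Without control replicate 4 these were adhfe1 in E2+ICI against control (0.51), and akr1a1b (-0.72) and sult2st1 (0.58) in E2+ICI against E2. Without control replicate 1 it was adh5 in E2 against control (-0.51). The gene abcc5 gained a call in E2+ICI against control without control replicate 2 (-0.73) or E2+ICI replicate 2 (-0.83). Gains of members outside the rule were not followed probe by probe, and the counts below include them. Causes were not tested. Members passing in E2 against control numbered 11 with a 2-fold minimum and 18 to 23 with 1 array left out, against 20. In E2+ICI against control they numbered 8 with quantile normalization, 12 with array weights, 1 with a 2-fold minimum and 2 (without E2+ICI replicate 3) to 8 (without control replicate 4) with 1 array left out, against 5. In E2+ICI against E2 they numbered 17 with quantile normalization, 15 with equal spread, 19 with array weights, 15 with only the groups compared and 1 before Lowess, against 4. With SAM they numbered 0, and its smallest possible q lies above the threshold here. There limma gave 16 members, and 3919 of all 16208 probes, at an unadjusted p under 0.05. With a 2-fold minimum 2 members passed. With 1 array left out 1 (without E2 replicate 1 or 3, or E2+ICI replicate 1 or 2) to 12 (without control replicate 4) passed, and 2 without E2 replicate 2. With 1 array left out the share of all probes that passed moved too, to 5.53% (without E2+ICI replicate 3) to 15.1% (without control replicate 4) in E2+ICI against control, where it was 6.71% without E2+ICI replicate 1, and to 0.882% (without E2 replicate 3) to 16.6% (without control replicate 4) in E2+ICI against E2, where it was at most 1.70% without any other single E2 array or without E2+ICI replicate 1 or 2, and 3.05% without E2+ICI replicate 3.

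Over all probes, calls in E2+ICI against control numbered 1939, against 1027 with quantile normalization, 1117 with equal spread, 4097 with array weights, 1214 with only the groups compared, 1096 before Lowess and 1130 with SAM. In E2+ICI against E2 they numbered 879, against 3937, 3891, 4510 and 3314 in the same order, 2090 with the replicate block and 180 before Lowess. Of the calls in E2+ICI against control 74.6% were higher, against 53.6% with quantile normalization, 64.3% with array weights and 84.3% with only the groups compared. Of those in E2 against control 53.8% were higher, against 39.6% before Lowess, where the median of all probes was -0.31 in place of -0.07.

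Same-numbered fish of different groups did not deviate together more than others (correlations of -0.23 to 0.17 over 9 pairs, and -0.27 to 0.33 over the 24 other pairs). With so few arrays per group this cannot exclude that the numbers stand for a pairing or a shared batch. With the replicate block 23 members passed in E2 against control, 6 in E2+ICI against control and 9 between E2+ICI and E2, probe A of cyp1a was -0.32 in E2 against control and probe B of hsd17b14 -0.09 in E2+ICI against control.

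Among the probes that the rule named, signs also turned in E2+ICI against control, unless another comparison is given. With quantile normalization the values were 0.49 for abca12, 0.07 for abca1a, -1.62 for abcb3 (and -0.28 in E2 against control), -0.36 for adh5, -0.20 for akr1a1b, -0.14 for aldh18a1, -1.15 for cyp4v2a, -0.52 for ephx5, -0.04 for hsd17b1 and -0.88 for probe A of cyp1a in E2 against control. With equal spread they were 0.70 for abca12, 0.46 for abca1a, -0.77 for abcb3 (and -0.07 in E2 against control), -0.15 for adh5, -0.12 for akr1a1b, -0.59 for cyp4v2a, -0.27 for ephx5 and -0.73 for probe A of cyp1a in E2 against control. With array weights they were -0.33 for cyp4v2a, -0.11 for probe B of hsd17b14, -0.02 for hsd20b2, -0.23 for probe A of cyp1a in E2 against control, and -0.04 for abcc5 and -0.03 for aldh3b1 in E2+ICI against E2. Before Lowess they were -0.13 for adh5, -0.04 for akr1a1b and 0.30 for ugt2a5 in E2+ICI against E2, and with array medians then set to 0 -0.11 for adh5, -0.02 for akr1a1b and -0.13 for aldh3b1 in E2+ICI against E2. With 1 array left out, values ran from -0.26 to 0.01 for abca12, -0.02 to 0.26 for abcb3, -0.45 to 0.62 for cyp4v2a, -0.59 to 0.02 for hsd17b12b and -0.09 to 0.40 for probe B of hsd17b14, from -0.32 to 0.23 for probe A of cyp1a and -0.14 to 0.03 for hsd20b2 in E2 against control, and from -0.14 to 0.20 for abcc5, -0.11 to 0.13 for aldh3b1 and -0.14 to 0.05 for ephx1 in E2+ICI against E2.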
